A study of Mus musculus with 15 samples.

Results

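Most of the genes described here belong to families of enzymes that write methyl groups onto histones, or take methyl or acetyl groups off them, although some members act on other proteins. They are all genes that fit a rule on names: every symbol that starts with Kdm, Kmt, Setd, Hdac or Sirt and a digit, without Kdm5c, Kdm5d and Kdm6a. That gave 49 of the 44827 genes in the deposited table. By role they were 7 H3K4 methyltransferases, 7 other SET domain enzymes, 16 demethylase symbols, 4 class I deacetylases, 7 class II and IV deacetylases, 7 sirtuins and 1 antisense RNA, Kdm6bos, which encodes no enzyme.

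RNA was sequenced from mouse bone marrow sorted as LSK, the fraction without lineage markers and with Sca1 and cKit on the surface, in which blood stem cells and early progenitors are enriched. Each of 5 groups had 3 libraries. The leukemic double mutant animals carried Tet2-/- and Nras(G12D) and had leukemia, and the double mutant animals carried the same alleles without leukemia. The other groups were Nras(G12D) alone, Tet2-/- alone and wild type (WT). All mice were C57BL/6, and the design text calls the alleles conditional and specific to hematopoietic tissue, so the Cre driver is known only to that extent. That text gives 6 months as the age of the animals whose DNA methylation was examined. The leukemic libraries, and no others, are also described with the term BMT, whose meaning was not established, and its effect and that of leukemia cannot be told apart. The column named N2-3 was taken as Nras(G12D) library 2. The labels do not tie each library to an animal of its own, and p-values therefore reflect variation between libraries of the same group, of which some may be technical. For each gene this variation was pooled over all 5 groups, so the spread within every group enters the p-value of each comparison.

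Histone tails carry methyl and acetyl groups that mark the state of the chromatin around a gene. Methylation of H3K4 sits at active promoters and enhancers and is placed by SET domain enzymes of the COMPASS family, while methylation of H3K9 and H3K27 goes with silenced chromatin. Lysine demethylases remove these marks, most of them by an oxidation that needs iron and 2-oxoglutarate, the same cofactors that the TET2 enzyme uses on DNA. Histone deacetylases take acetyl groups off histones, usually as part of corepressor complexes, and the sirtuins do so with NAD as cosubstrate. KMT2A, earlier called MLL1, is needed to keep blood stem cells and is broken by chromosome translocations in human acute leukemias.

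The stretch of 150 bases just before the annotated start of 5 members is shown for genes whose RNA differed between groups in the sections that follow: Setd6, Hdac2 and Kmt5a, which were higher in double mutant than in Tet2-/- cells, and Setd7 and Kmt2d, which were lower in leukemic than in non-leukemic double mutant cells. The sequences are from RefSeq on GRCm38.p6, written 5′ to 3′ on the strand of the gene. Capitals mark a GC box (GGGCGG) or a CCAAT box (CCAAT) on either strand.
Setd6, chr8:95715731-95715880 (plus strand): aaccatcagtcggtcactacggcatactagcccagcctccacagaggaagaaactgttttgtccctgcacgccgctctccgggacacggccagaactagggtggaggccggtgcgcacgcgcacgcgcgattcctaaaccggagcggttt
Hdac2, chr10:36974394-36974543 (plus strand): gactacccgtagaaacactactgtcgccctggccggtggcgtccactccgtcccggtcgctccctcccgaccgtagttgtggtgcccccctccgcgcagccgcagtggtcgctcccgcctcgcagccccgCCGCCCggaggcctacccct
Kmt5a, chr5:124439780-124439929 (plus strand): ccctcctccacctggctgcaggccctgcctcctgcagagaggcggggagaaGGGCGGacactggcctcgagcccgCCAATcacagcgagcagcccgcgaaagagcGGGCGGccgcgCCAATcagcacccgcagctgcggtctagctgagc
Setd7, chr3:51560880-51561029 (minus strand): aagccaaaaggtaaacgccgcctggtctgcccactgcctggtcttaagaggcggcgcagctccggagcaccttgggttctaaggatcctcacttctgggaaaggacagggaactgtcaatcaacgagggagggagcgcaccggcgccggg
Kmt2d, chr15:98871206-98871355 (minus strand): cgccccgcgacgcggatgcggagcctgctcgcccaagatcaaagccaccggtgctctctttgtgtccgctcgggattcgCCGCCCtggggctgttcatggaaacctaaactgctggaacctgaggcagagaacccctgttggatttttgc
The stretch of Setd6 held 15 CpG dinucleotides and neither box, that of Hdac2 held 18 and 1 GC box, that of Kmt5a held 13 with 2 GC boxes and 2 CCAAT boxes, that of Setd7 held 10 and neither box, and that of Kmt2d held 12 and 1 GC box. Promoter windows from 250 bases before to 50 bases after a start were found for 36 of the 49 members, 51 windows in all. Their median observed-to-expected CpG ratio was 0.824, against 0.384 over the 32851 windows of all genes. A GC box stood in 64.7% of the members' windows and in 35.7% of all windows, and a CCAAT box in 41.2% and 37.4%. The ETS motif CCGGAAG was in 15.7% of the members' windows and in 8.86% of all, the AP-1 motif TGANTCA in 9.8% and 7.81%, and the E-box CACGTG in 5.88% and 7.15%. Both strands were searched, and overlapping matches of different motifs were each counted. A match describes the letters only, and all windows include those of unexpressed genes.

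Total counts ran from 22733189 to 43562909 per library. Levels are given in CPM (a gene's count relative to the size of its library, after the authors' scaling), and a gene with 0 counts in a library could still be present at up to 3 counts (0.0775 to 0.127 CPM; counting error alone). A gene was tested if it reached 1 CPM in at least 3 libraries, which 13927 genes did, 46 members among them. Kdm4d (5 to 19 counts per library), the pseudogene Kdm4dl (0 to 4) and Kdm6bos (0 to 7) did not reach it. The summed level of 12 LSK markers was 885 to 3418 CPM in leukemic double mutant, 3681 to 4212 in double mutant, 2899 to 6094 in Nras(G12D), 5101 to 6762 in Tet2-/- and 4261 to 4818 in WT libraries, so the leukemic libraries were lower than all double mutant, Tet2-/- and WT libraries. Kit, which encodes a surface protein of the sort, had 673, 375 and 448 CPM in leukemic double mutant cells, against 1170, 1130 and 1421 CPM in WT cells. Ly6a, which encodes Sca1, the other surface protein of the sort, had 114, 64.7 and 189 CPM in leukemic double mutant cells, against 103, 87.5 and 73.6 CPM in WT cells, and these overlapped. The 11 erythroid markers summed to 1351 to 9480 CPM in leukemic double mutant cells, against 1296 to 1433 CPM in WT cells, and none of them was at 0. The 8 mast cell and basophil markers summed to 333 to 547 CPM in leukemic double mutant libraries, above the 122 to 252 CPM in double mutant, 162 to 288 in Nras(G12D), 76.9 to 165 in Tet2-/- and 104 to 157 in WT libraries, with none at 0. The part of these marker shifts in the members' changes was not tested. Tet2 itself had 35.9, 59.8 and 49.3 CPM in Tet2-/- libraries, against 65.2, 50.7 and 61 CPM in WT libraries, and the sources used here do not give the deleted part of the gene, and so its level does not check the genotype. The samples were bulk, in which fewer cells of a type and less RNA per cell cannot be told apart.

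The F test over the 5 groups (limma, Benjamini-Hochberg adjusted p below 0.05) called 26 of the 46 tested members, 56.5%, where it called 44% of all tested genes. By role these were 4 of 7 H3K4 methyltransferases, 5 of 7 other SET domain enzymes, 7 of 14 demethylases, 1 of 4 class I deacetylases, 6 of 7 class II and IV deacetylases and 3 of 7 sirtuins. Between leukemic double mutant and WT, 13 members differed, 4 higher and 9 lower. This was 28.3% of the members, where 24.7% of all genes differed, 10.8% higher and 13.9% lower. Between leukemic double mutant and double mutant, 10 members differed, 1 higher and 9 lower, or 21.7% where the share over all genes was 24.3%, with 9.04% higher and 15.2% lower. Between double mutant and Tet2-/-, 15 members differed, 13 higher and 2 lower, or 32.6% where the share over all genes was 28.7%, with 20.1% higher and 8.57% lower. The total shares of members lay near those of all genes in these 3 comparisons. Libraries of the 2 groups did not overlap for 23 of 46 members and 47.1% of all tested genes between leukemic double mutant and WT. Between leukemic double mutant and double mutant this held for 21 members and 43% of all tested genes. Between double mutant and Tet2-/- it held for 29 members and 53.5% of all tested genes. The median log2 change of the members was -0.20 between leukemic double mutant and WT, against -0.00 over all tested genes. It was -0.42 between leukemic double mutant and double mutant, against -0.10 over all genes, and 0.30 between double mutant and Tet2-/-, against 0.00. These comparisons share libraries, so their values are not independent of each other. Quantile normalization, an alternative scaling, moved the split between double mutant and Tet2-/- to 11 higher and 10 lower. It called 45.7% of members and 36.4% of all genes there, and the median of all genes shifted by -0.25 on the log2 scale. Scaling by total counts shifted the median of all genes by -0.26 between leukemic double mutant and WT. It called 4 higher and 14 lower members there (39.1% of members and 27% of all genes). The shift was -0.23 between leukemic double mutant and double mutant, where it called 1 higher and 14 lower (32.6% and 26.6%).

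**Figure D1:**
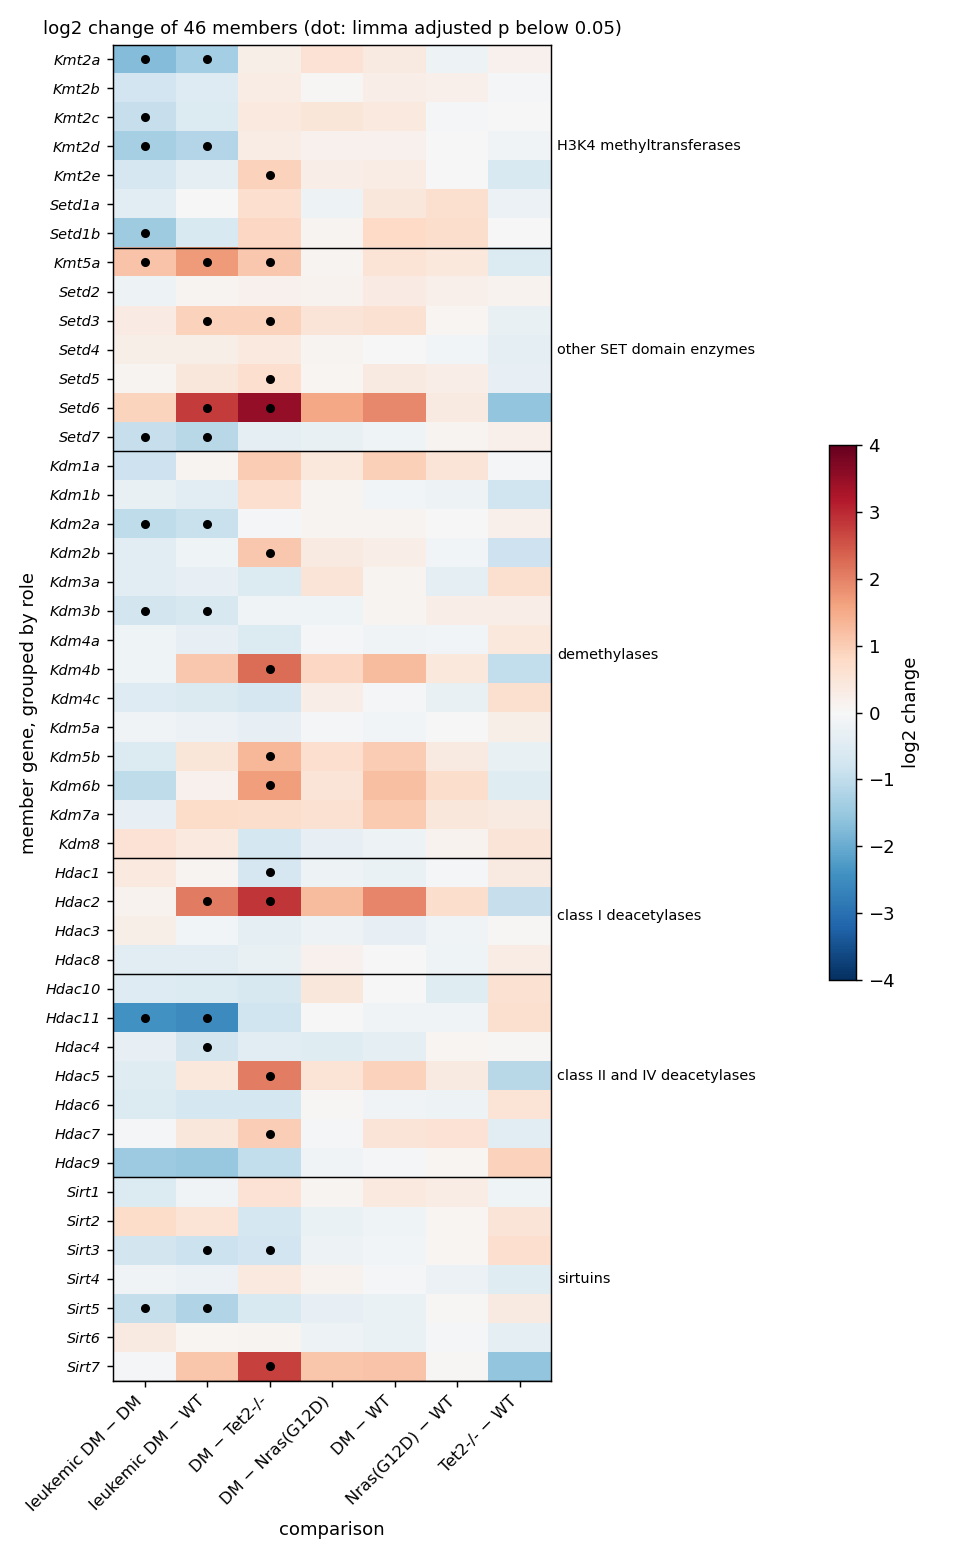
Log2 change of the 46 tested members (rows, grouped by role) in 7 comparisons of groups (columns), red for higher and blue for lower in the group named first, with a dot where limma's adjusted p was below 0.05. Dots are found in 3 columns, with 10, 13 and 15 dots from left to right.

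The H3K4 methyltransferases were lower in leukemic double mutant than in double mutant cells in 7 of 7 members. The median of their log2 changes was -0.93, in a range from -1.72 to -0.41. The change passed the test for 4 of them: Kmt2a, Kmt2c, Kmt2d and Setd1b. Under scaling by total counts 7 of 7 were lower and 5 passed. Under quantile normalization 6 were lower, 4 passed and the sign of Setd1a turned. Setd1a shares 51.9% of its exon bases with an overlapping gene model on the same strand, Gm49388, so its counts are uncertain.

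Values in single libraries of Kmt2a, Kmt2c, Kmt2d and Setd1b are shown because they passed this test, a choice made after their values were seen. Kmt2a, the catalytic subunit of the MLL1 complex (GRCm38 chr9:44803355-44881296, minus strand), had 96.1, 36.2 and 55.3 CPM in leukemic double mutant libraries 1 to 3 and 171, 199 and 203 CPM in double mutant libraries. It had 234, 48.9 and 179 CPM in Nras(G12D), 156, 148 and 190 CPM in Tet2-/- and 157, 147 and 138 CPM in WT libraries. All leukemic libraries were below all double mutant, Tet2-/- and WT libraries, and Nras(G12D) library 2 was as low as they were. Kmt2a fell by 1.72 ± 0.46 on the log2 scale (SE; adjusted p 0.0173, limma) relative to double mutant and by 1.35 ± 0.46 relative to WT (adjusted p 0.0449). Kmt2d, which with Kmt2c places most H3K4 monomethylation at enhancers, had 81, 67.2 and 65.6 CPM in leukemic double mutant and 188, 196 and 156 CPM in double mutant libraries. It had 231, 83.7 and 208 CPM in Nras(G12D), 115, 169 and 157 CPM in Tet2-/- and 180, 155 and 143 CPM in WT libraries. In no other library was it as low as in the leukemic ones. Kmt2d fell by 1.33 ± 0.31 relative to double mutant (adjusted p 0.0101, limma) and by 1.16 ± 0.31 relative to WT (adjusted p 0.0174). Kmt2c had 128, 83.3 and 77.9 CPM in leukemic double mutant, against 155, 191 and 192 CPM in double mutant libraries, and fell by 0.93 ± 0.23 (adjusted p 0.012, limma). Relative to WT libraries (127, 148 and 135 CPM), which overlapped the leukemic ones, its log2 change of -0.54 ± 0.23 did not pass (adjusted p 0.0914, limma). Setd1b, a catalytic subunit of a complex that trimethylates H3K4, had 10.4, 9.32 and 8.92 CPM in leukemic double mutant, against 22, 25.8 and 28.9 CPM in double mutant libraries, and fell by 1.41 ± 0.41 (adjusted p 0.0244, limma). Relative to WT libraries (15.8, 16.8 and 11.5 CPM) its log2 change of -0.61 ± 0.41 did not pass either (adjusted p 0.287, limma).

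The decrease of Kmt2d relative to double mutant was called whichever library was left out. The others lost the call without 1 of several libraries. For Kmt2a relative to double mutant these were leukemic double mutant 2 (-1.38) and 3 (-1.69) and double mutant 2 (-1.69) and 3 (-1.67). For Kmt2c they were leukemic double mutant 2 (-0.84) and 3 (-0.79), and for Setd1b leukemic double mutant 2 (-1.40) and 3 (-1.37) and double mutant 2 (-1.40) and 3 (-1.32), as well as quantile normalization (-1.06). Relative to WT, Kmt2a lost the call without leukemic double mutant 2 (-1.01) or 3 (-1.32) or without WT 1 (-1.30), 2 (-1.35) or 3 (-1.40), and Kmt2d without leukemic double mutant 2 (-1.12) or 3 (-1.10) or WT 1 (-1.07).

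In leukemic double mutant relative to WT cells 6 of 7 H3K4 methyltransferases were below 0. Their median log2 change was -0.54, and Kmt2a and Kmt2d passed the test. In the double mutant group, without leukemia, the same 7 genes stood higher than in WT cells, with a median log2 change of 0.37, but no member passed the test. Relative to Tet2-/- cells 7 of 7 were above 0 with a median of 0.40 (6 of 7 under quantile normalization, where Kmt2b turned), and Kmt2e passed. Setd7, which also methylates H3K4, was counted in another role. Its log2 change in double mutant was -0.37 relative to Tet2-/- and -0.18 relative to WT, and neither passed. Kmt2e, a relative thought to have no methyltransferase activity, had 280, 239 and 283 CPM in double mutant and 101, 249 and 112 CPM in Tet2-/- libraries. The groups overlapped, since Tet2-/- library 2 was among the double mutant values. Its log2 change was 0.92 ± 0.29 (adjusted p 0.0303, limma). The call was lost without Tet2-/- library 1 (0.67) or 3 (0.75) or without double mutant library 1 (0.88), 2 (1.0) or 3 (0.87). Kmt2e shares 9.31% of its exon bases with Srpk2 on the other strand, and whether reads were counted by strand is not given in the sources used here.

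Among the other SET domain enzymes, Setd6, Setd3 and Kmt5a rose and Setd7 fell in leukemic double mutant relative to WT cells, 4 of 7 members. In double mutant relative to Tet2-/- cells Setd6, Setd3, Setd5 and Kmt5a rose. Between leukemic and non-leukemic double mutant cells Kmt5a rose and Setd7 fell. Setd2, which trimethylates H3K36, and Setd4 were called in no comparison of 2 groups.

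Setd6 (chr8:95715881-95719010, plus strand), a monomethyltransferase known for acting on the NF-kB subunit RelA, had the smallest F test p of all members. It had 24.2, 42.6 and 49.2 CPM in leukemic double mutant and 6.71, 31.1 and 37.7 CPM in double mutant libraries. It had 9.34, 7.96 and 4.15 CPM in Nras(G12D), 1.83, 2.69 and 1.08 CPM in Tet2-/- and 3.39, 7.55 and 5.75 CPM in WT libraries. The leukemic libraries lay above all Nras(G12D), Tet2-/- and WT libraries, the Tet2-/- libraries were the lowest 3 of 15, and double mutant library 1 lay among the WT values. The log2 change was 3.50 ± 0.59 between double mutant and Tet2-/- (adjusted p 0.00472, limma) and 2.80 ± 0.59 between leukemic double mutant and WT (adjusted p 0.0064). Both were called whichever library was left out. Between double mutant and WT it was 1.91 ± 0.59 (adjusted p 0.123), and 2.69 ± 0.49 (adjusted p 0.00526) without double mutant library 1.

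Kmt5a (chr5:124439930-124462308, plus strand), which monomethylates H4K20 and is tied to the cell division cycle, had 118, 241 and 174 CPM in leukemic double mutant and 67.3, 83.8 and 80.6 CPM in double mutant libraries. It had 109, 59.9 and 54.2 CPM in Nras(G12D), 29.4, 38.5 and 42.6 CPM in Tet2-/- and 43.8, 66.9 and 50.3 CPM in WT libraries. The leukemic libraries were the highest 3 and the Tet2-/- libraries the lowest 3 of all 15. The log2 change was 1.69 ± 0.31 between leukemic double mutant and WT (adjusted p 0.00343, limma), and this was called whichever library was left out. It was 1.15 ± 0.31 between leukemic double mutant and double mutant (adjusted p 0.0181), a call lost without leukemic double mutant 2 (0.90) or 3 (1.13) or double mutant 1 (1.05) or 3 (1.18). It was 1.08 ± 0.31 between double mutant and Tet2-/- (adjusted p 0.0207), lost without double mutant 2 (1.02) or 3 (1.05) or Tet2-/- 1 (0.92).

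Setd7 (chr3:51515319-51560879, minus strand), which methylates H3K4 and several other proteins, had 21.1, 14.8 and 15.9 CPM in leukemic double mutant and 32.6, 31.9 and 32.2 CPM in double mutant libraries. It had 55.1, 26.1 and 42.3 CPM in Nras(G12D), 41.2, 37.3 and 46.7 CPM in Tet2-/- and 39.7, 34.7 and 35.1 CPM in WT libraries. All leukemic libraries lay below the other 12. Setd7 fell by 1.10 ± 0.26 on the log2 scale relative to WT (adjusted p 0.01, limma), which was called whichever library was left out. It fell by 0.92 ± 0.26 relative to double mutant (adjusted p 0.0217), a call lost without leukemic double mutant 2 (-0.82) or 3 (-0.87) or double mutant 1 (-0.91), 2 (-0.93) or 3 (-0.92), and under quantile normalization (-0.68).

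Setd3, which methylates a histidine of actin, had 128, 135 and 139 CPM in leukemic double mutant and 76.2, 131 and 122 CPM in double mutant libraries. It had 63.8, 101 and 63 CPM in Nras(G12D), 48.1, 66.7 and 57.8 CPM in Tet2-/- and 61.8, 80.5 and 70.3 CPM in WT libraries. The leukemic libraries lay above all WT libraries, and the double mutant libraries above all Tet2-/- libraries. The log2 change was 0.93 ± 0.25 between leukemic double mutant and WT (adjusted p 0.0179, limma), lost without leukemic double mutant 2 (0.92) or 3 (0.90) or WT 1 (0.83) or 3 (0.92). It was 0.91 ± 0.25 between double mutant and Tet2-/- (adjusted p 0.0186), lost without double mutant 2 (0.76) or 3 (0.81) or Tet2-/- 1 (0.78) or 3 (0.91). Setd5 changed by 0.67 ± 0.22 between double mutant and Tet2-/- (adjusted p 0.0336, limma), lost under quantile normalization (0.54) and without double mutant 2 (0.57) or 3 (0.70) or Tet2-/- 1 (0.52) or 3 (0.78).

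**Figure D2:**
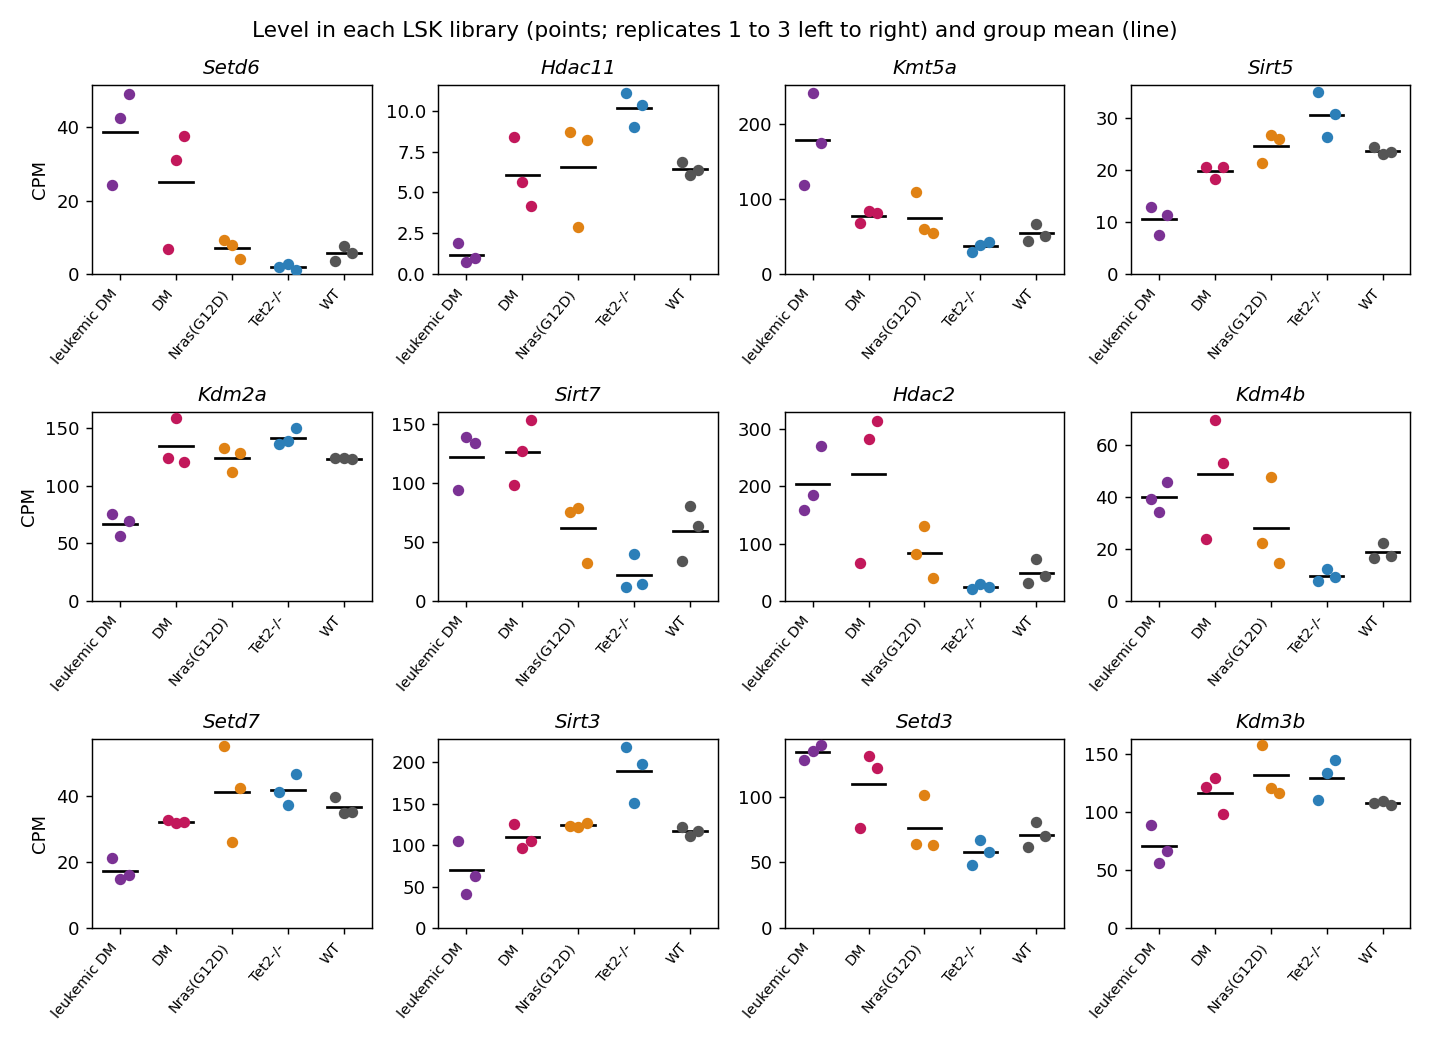
Level in CPM (vertical axes, from 0) of the 12 members with the smallest F test p in each of the 15 libraries (points) with the group mean (line), groups from leukemic double mutant on the left to WT on the right. Leukemic libraries lie above all WT libraries for Setd6, Kmt5a, Sirt7, Hdac2, Kdm4b and Setd3 and below all of them for Hdac11, Sirt5, Kdm2a, Setd7, Sirt3 and Kdm3b.

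Of the 14 demethylases tested, 13 were lower in leukemic double mutant than in double mutant cells, with a median log2 change of -0.42, and Kdm2a and Kdm3b passed the test. The same pair fell relative to WT. In double mutant relative to Tet2-/- cells Kdm2b, Kdm4b, Kdm5b and Kdm6b rose, none fell, and 7 of 14 were above 0. Under quantile normalization 3 rose and 3 fell in that comparison.

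Kdm2a (chr19:4314419-4398285, minus strand), an H3K36 demethylase that binds unmethylated CpG islands, had 75.5, 56 and 69.3 CPM in leukemic double mutant and 124, 159 and 121 CPM in double mutant libraries. It had 133, 112 and 129 CPM in Nras(G12D), 136, 139 and 150 CPM in Tet2-/- and 124, 124 and 123 CPM in WT libraries. Leukemic libraries were lowest, and the other 12 spanned 112 to 159 CPM. Kdm2a fell by 1.01 ± 0.18 on the log2 scale relative to double mutant (adjusted p 0.00374, limma) and by 0.90 ± 0.18 relative to WT (adjusted p 0.00538), both called whichever library was left out. Kdm3b, an H3K9 demethylase, had 89, 56.3 and 66.3 CPM in leukemic double mutant and 122, 130 and 98.4 CPM in double mutant libraries. It had 158, 121 and 117 CPM in Nras(G12D), 111, 134 and 145 CPM in Tet2-/- and 108, 110 and 106 CPM in WT libraries. Again the 3 leukemic libraries were the lowest. It fell by 0.75 ± 0.21 relative to double mutant (adjusted p 0.0236, limma), lost without leukemic double mutant 2 (-0.60) or 3 (-0.71) or double mutant 1 (-0.71) or 2 (-0.66). It fell by 0.64 ± 0.21 relative to WT (adjusted p 0.0414), lost without leukemic double mutant 2 (-0.49) or 3 (-0.61) or WT 1 (-0.64), 2 (-0.63) or 3 (-0.65).

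Kdm4b, an H3K9 demethylase, had 39.3, 34.3 and 45.5 CPM in leukemic double mutant and 23.7, 69.4 and 52.8 CPM in double mutant libraries. It had 22.3, 47.5 and 14.7 CPM in Nras(G12D), 7.56, 12.1 and 9.06 CPM in Tet2-/- and 16.5, 22.2 and 17.4 CPM in WT libraries. The Tet2-/- libraries were the lowest 3, and all double mutant libraries lay above all WT libraries. The log2 change between double mutant and Tet2-/- was 2.23 ± 0.42 (adjusted p 0.00472, limma), called whichever library was left out. Kdm6b, which removes methyl groups from H3K27, had 12.4, 12.2 and 19.1 CPM in double mutant, against 4.76, 3.77 and 4.91 CPM in Tet2-/- libraries. The groups did not overlap, as was so for 53.5% of all tested genes. The log2 change of Kdm6b was 1.68 ± 0.38 (adjusted p 0.00786, limma), called whichever library was left out. Kdm5b, an H3K4 demethylase, had 87.6, 181 and 194 CPM in double mutant, against 53.7, 53 and 70.2 CPM in Tet2-/- libraries. Its log2 change was 1.32 ± 0.35 (adjusted p 0.0149, limma), lost without double mutant 2 (1.16) or 3 (1.11) or Tet2-/- 1 (1.25). Kdm2b, which brings a Polycomb complex to CpG islands, had 48.4, 64.9 and 37.8 CPM in double mutant and 17.1, 44.6 and 16.4 CPM in Tet2-/- libraries, and the groups overlapped through Tet2-/- library 2. Its log2 change was 1.08 ± 0.38 (adjusted p 0.0451, limma), lost under quantile normalization (0.70) and without double mutant 1 (1.09), 2 (0.88) or 3 (1.27) or Tet2-/- 1 (0.86) or 3 (0.83). Kdm2b shares 5.77% of its exon bases with Rnf34 on the other strand, a gene with a mean of 101 CPM. The values of Kdm6b, Kdm5b and Kdm2b are shown because they passed this test, a choice made after they were seen. Immediate early genes, which cells switch on within minutes of a stimulus, moved with the double mutant group. Of these, 12 of 17 were called higher than in Tet2-/- cells (20.1% of all genes were), with a median log2 change of 3.86. Between leukemic double mutant and double mutant 12 of the 17 were called lower (15.2% of all genes were), with a median of -2.06. The part of this in the members' changes in either comparison was not tested.

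The class I deacetylases are Hdac1, Hdac2, Hdac3 and Hdac8, and all but Hdac8 encode nuclear enzymes of the Sin3, NuRD, CoREST and NCoR complexes. None of the 4 passed the test between leukemic and non-leukemic double mutant cells, where their median log2 change was 0.19 (-0.04 under scaling by total counts, where Hdac2 turned, and -0.09 under quantile normalization, where Hdac2 and Hdac3 turned). Hdac2 rose in leukemic double mutant relative to WT cells, and in double mutant relative to Tet2-/- cells Hdac2 rose while Hdac1 fell.

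Hdac2 (chr10:36974544-37001889, plus strand) had 158, 185 and 270 CPM in leukemic double mutant and 66, 283 and 315 CPM in double mutant libraries. It had 82, 131 and 40.2 CPM in Nras(G12D), 20.2, 29.7 and 25.1 CPM in Tet2-/- and 31.6, 73.2 and 43.9 CPM in WT libraries. The Tet2-/- libraries were the lowest 3 of all 15, and double mutant library 1 lay within the range of the WT libraries while the other two were the highest of all. The log2 change was 2.87 ± 0.54 between double mutant and Tet2-/- (adjusted p 0.00472, limma), called whichever library was left out. It was 2.09 ± 0.54 between leukemic double mutant and WT (adjusted p 0.0149), lost without leukemic double mutant 3 (1.87) or WT 1 (1.81) or 3 (2.05). Between double mutant and WT it was 1.95 ± 0.54 (adjusted p 0.1), and 2.68 ± 0.45 (adjusted p 0.00378) without double mutant library 1.

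Hdac1, the close relative of Hdac2, had 179, 262 and 225 CPM in leukemic double mutant and 181, 166 and 159 CPM in double mutant libraries. It had 159, 206 and 227 CPM in Nras(G12D), 289, 217 and 298 CPM in Tet2-/- and 210, 202 and 203 CPM in WT libraries. All double mutant libraries lay below all Tet2-/- and all WT libraries. Relative to Tet2-/- it fell by 0.66 ± 0.20 on the log2 scale (adjusted p 0.0273, limma), lost without double mutant 2 (-0.65) or 3 (-0.61) or Tet2-/- 1 (-0.59) or 3 (-0.57), and its F test over the groups was not called (adjusted p 0.105).

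The class II and IV deacetylases were lower in leukemic double mutant than in double mutant cells in 7 of 7 members, also under total-count scaling and quantile normalization, with a median log2 change of -0.53. Hdac11 passed the test, and relative to WT both Hdac11 and Hdac4 fell. In double mutant relative to Tet2-/- cells Hdac5 and Hdac7 rose, while 5 of 7 were below 0 and the median was -0.63. Under quantile normalization 2 rose and 4 fell there.

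Hdac11 (chr6:91156665-91174692, plus strand), the class IV enzyme, which removes long-chain fatty acyl groups, had 1.89, 0.692 and 0.966 CPM in leukemic double mutant and 8.44, 5.67 and 4.14 CPM in double mutant libraries. It had 8.71, 2.87 and 8.21 CPM in Nras(G12D), 11.1, 9.03 and 10.4 CPM in Tet2-/- and 6.9, 6.1 and 6.41 CPM in WT libraries. The leukemic libraries were the lowest 3 of all 15. Hdac11 fell by 2.56 ± 0.45 on the log2 scale relative to WT (adjusted p 0.00293, limma) and by 2.41 ± 0.45 relative to double mutant (adjusted p 0.0041), both called whichever library was left out. Hdac4, a class IIa deacetylase that shuttles between nucleus and cytoplasm, fell by 0.72 ± 0.20 relative to WT (adjusted p 0.0224, limma), to 23.6, 20.7 and 17.5 CPM in leukemic double mutant libraries, against 32.8, 36.3 and 32.1 CPM in WT libraries. The call was lost without leukemic double mutant 2 (-0.73) or 3 (-0.60) or WT 1 (-0.74), 2 (-0.66) or 3 (-0.75).

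Hdac5, another class IIa deacetylase, had 47.4, 84.7 and 53.3 CPM in double mutant, against 9.47, 28.3 and 11.5 CPM in Tet2-/- libraries, which did not overlap. Its log2 change was 2.04 ± 0.47 (adjusted p 0.00814, limma), lost without Tet2-/- library 1 (1.73, adjusted p 0.0506). Hdac7 had 78.6, 104 and 70.3 CPM in double mutant, against 29.3, 56.9 and 43.9 CPM in Tet2-/- libraries. Its log2 change was 0.99 ± 0.29 (adjusted p 0.0243, limma), lost without double mutant 2 (0.83) or 3 (1.11) or Tet2-/- 1 (0.73) or 3 (1.02). Hdac9 spread most within the leukemic group, with 23.1, 2.4 and 10.5 CPM in leukemic double mutant, against 22.1, 20.9 and 29.4 CPM in WT libraries. Its log2 change of -1.51 ± 0.57 did not pass the test (adjusted p 0.0651, limma). The values of Hdac4, Hdac5, Hdac7 and Hdac9 are shown by a choice made after they were seen.

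Among the 7 sirtuins, Sirt5 and Sirt3 fell in leukemic double mutant relative to WT cells, and Sirt5 also fell relative to double mutant. In double mutant relative to Tet2-/- cells Sirt7 rose and Sirt3 fell. Sirt1, Sirt2, Sirt4 and Sirt6 were called in no comparison of 2 groups. Sirt5 (chr13:43365496-43395203, plus strand), which removes succinyl and related groups from mitochondrial proteins, had 12.8, 7.44 and 11.3 CPM in leukemic double mutant and 20.5, 18.2 and 20.6 CPM in double mutant libraries. It had 21.4, 26.8 and 25.9 CPM in Nras(G12D), 35, 26.3 and 30.7 CPM in Tet2-/- and 24.4, 23.1 and 23.5 CPM in WT libraries. The 3 leukemic libraries were the lowest and the double mutant libraries the next 3. Sirt5 fell by 1.20 ± 0.24 on the log2 scale relative to WT (adjusted p 0.00477, limma), called whichever library was left out. It fell by 0.94 ± 0.24 relative to double mutant (adjusted p 0.0133), lost without leukemic double mutant 2 (-0.71) or double mutant 3 (-0.91), and under quantile normalization (-0.53).

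Sirt7 (chr11:120618372-120625240, minus strand), a nuclear deacetylase of H3K18 found in the nucleolus, had 94, 139 and 134 CPM in leukemic double mutant and 98.3, 127 and 153 CPM in double mutant libraries. It had 75.7, 78.4 and 32.4 CPM in Nras(G12D), 11.8, 39.6 and 14 CPM in Tet2-/- and 34.2, 80.1 and 63.4 CPM in WT libraries. The libraries of both double mutant groups lay above all 9 others. The log2 change between double mutant and Tet2-/- was 2.73 ± 0.46 (adjusted p 0.00472, limma), called whichever library was left out.

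Sirt3, the main mitochondrial deacetylase, had 105, 41.2 and 62.7 CPM in leukemic double mutant and 126, 97 and 105 CPM in double mutant libraries. It had 123, 122 and 127 CPM in Nras(G12D), 219, 151 and 198 CPM in Tet2-/- and 122, 110 and 117 CPM in WT libraries. The Tet2-/- libraries were the highest 3 of all 15. Sirt3 fell by 0.85 ± 0.28 in leukemic double mutant relative to WT (adjusted p 0.0378, limma), lost without leukemic double mutant 2 (-0.52) or 3 (-0.82) or WT 1 (-0.81), 2 (-0.88) or 3 (-0.84). It fell by 0.78 ± 0.28 in double mutant relative to Tet2-/- (adjusted p 0.0464), lost under either other scaling (-0.73 by total counts, -0.71 by quantiles) and without double mutant 1 (-0.89), 2 (-0.70) or 3 (-0.76) or Tet2-/- 1 (-0.67) or 3 (-0.74). With the replicate number as a block in these groups its adjusted p was 0.0555 (limma). Sirt3 shares 7% of its exon bases with Ric8a and 5.73% with Psmd13, both on the other strand. Other called members also overlap gene models on the other strand, among them Kdm3b (24.6%, Gm26538), Hdac4 (22.4%, Gm26720) and Hdac11 (15.4%, Gm44002). The mean level was 1.95 CPM for Gm26538 and 0 for Gm26720.

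**Figure D3:**
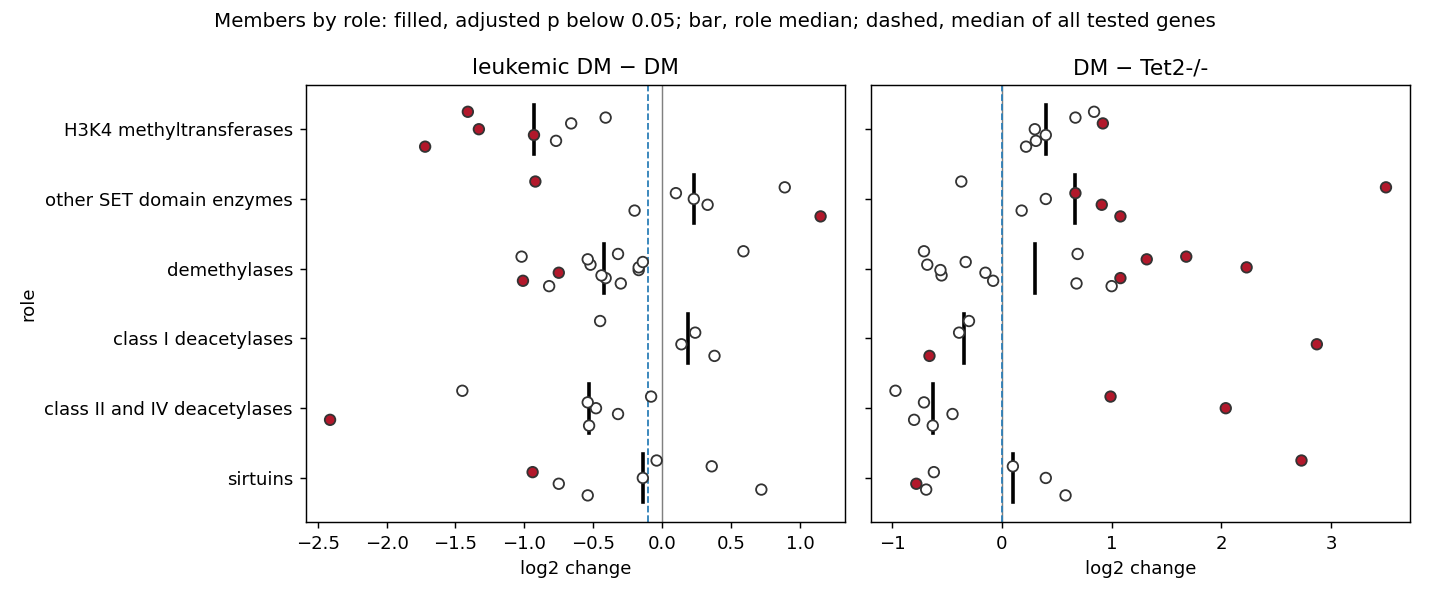
Log2 change of each tested member (points, filled where limma's adjusted p was below 0.05) by role, with the role's median (bar) and the median of all tested genes (dashed), for leukemic double mutant minus double mutant (left) and double mutant minus Tet2-/- (right). On the left all H3K4 methyltransferases and all class II and IV deacetylases lie below 0, and on the right all H3K4 methyltransferases lie above 0. Under quantile normalization Setd1a turned on the left and Kmt2b on the right. The role of H3K4 methyltransferases includes Kmt2e and leaves out Setd7.

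No member was called in the remaining comparisons. Between Tet2-/- and WT 0 members passed (0.23% of all genes did, 0.108% higher and 0.122% lower). An unadjusted p below 0.05 (limma) was found for 9 of 46 members and for 3304 of all 13927 genes. The voom fit with sample quality weights, an alternative, called 25 there (54.3% of members and 49.8% of all genes), and the main test without Tet2-/- library 2 called 6 (13% of members and 16% of all genes), which were Kmt2e, Kdm2b, Hdac5, Sirt7 and Sirt4 lower and Kdm8 higher. Sirt7 had the smallest adjusted p, 0.11, with a log2 change of -1.58 ± 0.46 and -2.12 ± 0.42 (adjusted p 0.0056, limma) without that library. Between Nras(G12D) and WT 0 members passed (0% of all genes), 0 had an unadjusted p below 0.05 (577 of all genes had) and the voom fit called 0. The groups did not overlap for 2 of 46 members, and for 12% of all genes. Between double mutant and WT 0 members passed (0.682% of all genes, 0.488% higher and 0.194% lower). There 9 members had an unadjusted p below 0.05 (2119 of all genes had). The voom fit called 16 (34.8% of members and 26.3% of all genes). Without double mutant library 1 the test called 5 (10.9% of members and 7.12% of all genes), Setd6, Kdm4b, Hdac2, Kdm5b and Kdm7a, all higher. Kdm7a, a demethylase of H3K9 and H3K27, had 28.3, 52.7 and 48.6 CPM in double mutant, against 19.9, 20.9 and 19.3 CPM in WT libraries, and a log2 change of 1.06 ± 0.30 (adjusted p 0.104, limma), or 1.34 ± 0.31 (adjusted p 0.0181) without that library. Between double mutant and Nras(G12D) 0 members passed (0.079% of all genes, 0.0503% higher and 0.0287% lower). There 4 members had an unadjusted p below 0.05 (1032 of all genes had), and the voom fit called 0 (0.158% of all genes). Without double mutant library 1 Setd6 was the member called there (0.819% of all genes were), with a log2 change of 2.34 ± 0.49 (adjusted p 0.0489, limma).

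The interaction asks whether the change of the double mutant departs from the sum of the changes of each single mutant. It called 0 members and 0% of all genes. An unadjusted p below 0.05 (limma) was found for 10 of 46 members and for 2924 of all 13927 genes. The voom fit called 19 (41.3% of members and 42.5% of all genes). The smallest adjusted p was 0.143, for Sirt7 with 2.68 ± 0.65 and Setd6 with 3.14 ± 0.83 on the log2 scale (limma), and Kdm4b had 1.80 ± 0.60 (adjusted p 0.148). Without Tet2-/- library 2 the interaction was called for 6 members (13%, and 12.1% of all genes), with Sirt7 at 3.22 ± 0.56 (adjusted p 0.00809, limma). Without double mutant library 1 it was called for 4 members (8.7%, and 3.63% of all genes), Setd6 at 3.93 ± 0.65 (adjusted p 0.0346, limma), Hdac2, Sirt7 and Kdm4b.

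Levels can be compared between genes per kilobase of exon. In WT cells Hdac1 had the highest level, 59.4 ± 1.4 CPM per kb (SD, n = 3), above 93.9% of the 13604 tested genes with a length, followed by Hdac3 with 42 ± 0.83. Their ranges of mean ± SD did not overlap. Kdm6b had the lowest level, 0.909 ± 0.21, and Setd1a (1.09 ± 0.29) and Setd1b (1.22 ± 0.23) were next, and the ranges of these 3 overlapped with their neighbours'. In leukemic double mutant cells Hdac1 (64.4 ± 12) was followed by Hdac2 (45.7 ± 13), Hdac3 (39.1 ± 2.1) and Kmt5a (33.5 ± 12), each overlapping with the next within its SD, and Hdac11 was lowest with 0.307 ± 0.16. Hdac2 reached 49.5 ± 30 CPM per kb in double mutant cells and 5.59 ± 1.1 in Tet2-/- cells, while Hdac1 had 48.9 ± 3.3 in double mutant and 77.7 ± 13 in Tet2-/- cells. On this scale the means of the 2 paralogs were close in double mutant cells, where Hdac2 had a wide spread, and Hdac1 was above Hdac2 in every Tet2-/- library. Above the median of all tested genes lay 22 of 46 members in leukemic double mutant, 29 in double mutant, 27 in Nras(G12D), 24 in Tet2-/- and 27 in WT cells.

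Libraries within a group differed to unequal degrees, while the fit used a common spread per gene for every comparison. The median ratio of the highest to the lowest of the 3 libraries over the members was 1.48 in leukemic double mutant, 1.31 in double mutant, 1.73 in Nras(G12D), 1.44 in Tet2-/- and 1.21 in WT cells, and the ratio over all tested genes was 1.78, 1.37, 1.91, 1.58 and 1.3 in that order. In Nras(G12D) cells 22 of 46 members (47.8%) differed by more than 2-fold between libraries, where 46.1% of all tested genes did. In WT cells 3 members did (6.52%), where 12.6% of all tested genes did. Nras(G12D) library 1 was the highest of all 15 for 12 members, and the share of all genes highest there is not given here. For the H3K4 methyltransferases Nras(G12D) library 2 was the lowest of its group in 6 of 7, all but Kmt2e. Nras(G12D) libraries also differed in neutrophil markers, whose sum over 10 genes was 107 to 4218 CPM, against 133 to 251 CPM in WT libraries. The part of this in the members' spread was not tested.

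Of the 9 members that fell between double mutant and leukemic double mutant cells, 7 had transcripts longer than the members' median of 4620 bases. Across the 46 members, Spearman's rho between transcript length and the log2 change of leukemic double mutant relative to double mutant was -0.53, and across 11913 tested genes it was -0.16. Of the 23 members above that median 22 were below 0 (median -0.54 on the log2 scale), and of the 23 others 13 were below 0 (median -0.08). These genes share libraries and the H3K4 methyltransferases are among the longest, and the parts of length and role in the change were not tested. For GC content the correlation was -0.01 over the members. Between double mutant and Tet2-/- the correlation with GC content was 0.14 over the members and 0.32 over all genes.

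**Figure D4:**
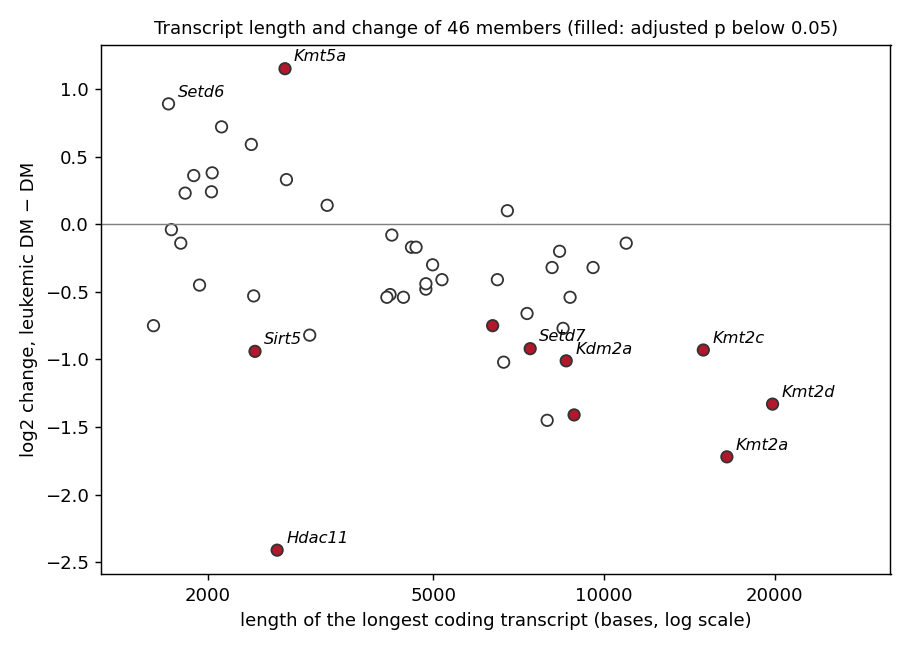
Length of the longest coding transcript (horizontal, log scale, bases) against the log2 change between leukemic double mutant and double mutant (vertical) for the 46 tested members, filled where limma's adjusted p was below 0.05. Long genes such as Kmt2a, Kmt2c and Kmt2d lie below 0, and Kmt5a is the filled point above 0.

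Partners of these enzymes that are not members are given from 5 lists. Of all tested genes, 10.8% were higher and 13.9% lower in leukemic double mutant than in WT cells. In leukemic double mutant relative to double mutant cells these shares were 9.04% and 15.2%. In double mutant relative to Tet2-/- cells they were 20.1% and 8.57%. The first list held COMPASS and MLL complex subunits together with KMT2A fusion partners (Mllt1, Mllt3, Mllt6, Mllt10, Aff1 and Aff4), which are not core subunits. Of its 20 tested genes, 2 were higher and 1 lower in leukemic double mutant than in WT cells. Between leukemic double mutant and double mutant 1 was higher (Mllt3) and 2 lower (Mllt6 and Aff4), all of them fusion partners. Between double mutant and Tet2-/- 6 were higher and 0 lower. The medians were 0.21, -0.16 and 0.55 on the log2 scale, in that order. Mllt6, a fusion partner of KMT2A in human leukemia, fell by 2.36 ± 0.50 between leukemic double mutant and double mutant (adjusted p 0.00656, limma). Ash2l, a core subunit of the COMPASS and MLL complexes, changed by 2.18 ± 0.51 between double mutant and Tet2-/- (adjusted p 0.00906, limma). Of 38 subunits of deacetylase complexes, 13 were higher and 3 lower in double mutant than in Tet2-/- cells, with a median of 0.58, and Sap30, a Sin3 subunit, led with 4.40 ± 0.73 (adjusted p 0.00472, limma). In leukemic double mutant cells 8 were higher and 4 lower relative to WT and 3 higher and 4 lower relative to double mutant.

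Of 27 other histone methyltransferases, 4 were higher and 5 lower in leukemic double mutant than in WT cells, 3 higher and 6 lower in leukemic double mutant than in double mutant cells, and 10 higher and 4 lower in double mutant than in Tet2-/- cells. The shares of all tested genes given before the first list apply to these counts too. Prmt2, an arginine methyltransferase, fell by 2.0 ± 0.28 in leukemic double mutant relative to double mutant (adjusted p 0.00108, limma) and by 1.98 ± 0.28 relative to WT (adjusted p 0.00118). Ash1l, an H3K36 methyltransferase, fell by 1.02 ± 0.23 relative to double mutant (adjusted p 0.00902, limma). Of 17 histone acetyltransferases, the enzymes that oppose the deacetylases, 1 was higher and 5 lower in leukemic double mutant than in double mutant cells. They included Kat6a, which fell by 0.95 ± 0.21 (adjusted p 0.00847, limma), and Ep300, which fell by 0.63 ± 0.19 (adjusted p 0.028). Of 8 other demethylases none was called between leukemic double mutant and WT or double mutant, and 2 were lower in double mutant than in Tet2-/- cells. None of the 5 lists had a called gene in the other comparisons.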

How the data were processed

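The deposited table holds 44827 gene symbols by 15 libraries on a log2 scale. The deposited values are log2 CPM with 0.5 added to each count and 1 to the library size, a unit read from the values, since 100% of them came back as whole counts within 1e-06. The library size behind each column was 0.813 to 1.12 times the summed counts, so the authors' values carry a scaling of each library. The submitters' processing notes list limma 3.28.21, edgeR 3.14.0, STAR 2.4.0f1 and bcl2fastq as tools and NCBIM37 and mm10 as builds, with no role for either build. How reads were counted, on which annotation and whether by strand is not given in the sources used here. Columns were matched to samples by the description labels, and 0 columns were left unused.

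Genes at a deposited log2 value of 0 (1 CPM) or more in at least 3 libraries entered a single linear model in R 4.3.3 with limma 3.58.1 (eBayes, intensity trend): 5 group means, 15 libraries, 10 residual degrees of freedom. Two-sided tests were used, with Benjamini-Hochberg adjustment over all 13927 genes within each of 7 comparisons of 2 groups, the interaction and the F test. Log2 changes are given ± SE and levels ± SD (n = 3 per group), and log2 changes of low genes are understated by the added 0.5 count. The fit was tested on simulated data with an equal spread of a gene in all groups. The groups of the real libraries differed in spread, which that test does not cover. The members and lists were chosen with earlier results of these data known. Values in every library are given for the 12 members with the smallest F test p and for the 2 called members with the smallest p in each direction and comparison. For others, Kmt2e and Kdm7a among them, values of some or all groups are shown by a choice made after they were seen. Libraries of a group differed beyond sampling noise. The labels do not say that replicate numbers pair libraries. In the data, same-numbered libraries deviated together in all 3 pairs (correlations 0.106 to 0.137) between double mutant and Tet2-/-, and in no other comparison of 2 groups were all 3 over 0.1. Alternatives were an added count of 0.1, no filter, scaling by total counts, quantile normalization, voom with sample quality weights, the replicate number as a block (for all groups, and, added after seeing the data, for double mutant and Tet2-/- alone), Y-linked genes as a covariate and leaving out each library. Coordinates and lengths are from GENCODE M21 on GRCm38, and promoters from RefSeq on GRCm38.p6.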

Additional observations from a re-analysis of the deposited data

How the results depend on the processing

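The number of called members varied most with 1 library left out and with how libraries were weighted. Leaving out a library leaves fewer in its group, so a lost call need not mean that the change rested on that library. Kmt2a relative to WT lost its call without WT 2 (-1.35) or WT 3 (-1.40), where the main fit had -1.35. Voom with sample quality weights raised the number of called members to 25 between Tet2-/- and WT (it called 49.8% of all genes), 16 between double mutant and WT (26.3%), 31 between leukemic double mutant and WT (60.5%), 37 between double mutant and Tet2-/- (63.2%), 32 between leukemic double mutant and double mutant (56.7%), 19 in the interaction (42.5%) and 44 in the F test. The cause was not tested; its weights ran from 0.225 for leukemic double mutant library 1 to 4.11 for leukemic double mutant library 3. Without a filter on low genes the F test called 17. With Y-linked genes as a covariate 1 member, Kdm7a, was called between double mutant and WT (2.84% of all genes were). The causes were not tested. With 1 library left out, 0 to 6 members were called between Tet2-/- and WT (0.0359% to 16% of all genes). The ranges were 0 to 5 between double mutant and WT (0.0431% to 7.12%) and 6 to 18 between leukemic double mutant and WT (9.74% to 37.7%). They were 5 to 20 between double mutant and Tet2-/- (9.03% to 37.6%) and 0 to 1 between double mutant and Nras(G12D) (0.0646% to 0.819%). Between leukemic double mutant and double mutant 3 to 14 were called (8.51% to 38%). The interaction called 0 to 6 (0% to 12.1%) and the F test 14 to 30. For the F test the share of all genes under the alternatives is not given here. In the replicate block fit 1 member, Sirt7, was called between Tet2-/- and WT (5.12% of all genes were). It called 14 between leukemic double mutant and WT (26.4% of all genes) and 15 between double mutant and Tet2-/- (27.7%). Between leukemic double mutant and double mutant it called 11 (25.4%), and in the F test 21. Deviations of same-numbered libraries correlated between -0.346 and 0.294, over 0.1 in 12 of 30 pairs, and in all 3 pairs for Tet2-/- and double mutant alone. A block on those 2 groups, chosen after seeing the data, called 14 members there (25.8% of all genes). It left out Sirt3 (-0.78, adjusted p 0.0555, limma) and changed no other call in that comparison. No called change turned its sign under any alternative run (changes that were not called did so for Setd1a, Kmt2b, Hdac2 and Hdac3, among others): of the values with 1 library left out 135 kept their side of the threshold and 93 lost it, and of the other values 261 kept it and 20 lost it. Changes called with each library left out and under every other alternative were 6 between leukemic double mutant and WT, 5 between double mutant and Tet2-/- and 3 between leukemic double mutant and double mutant. Without the filter on low genes, which tests more genes, the calls of Kmt2a, Kdm3b, Hdac4 and Sirt3 relative to WT, of Kdm3b relative to double mutant and of Kmt2e, Kdm2b, Setd5, Hdac1 and Sirt3 relative to Tet2-/- were lost, and with the Y-linked covariate those of Kmt2a relative to WT (-1.29) and Sirt3 relative to Tet2-/- (-0.70).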
